A study of Mus musculus with 6 samples.

Results

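Complement is a set of plasma proteins that mark microbes and damaged cells for removal, and most of its circulating components are made and secreted by hepatocytes. The proteins act as a cascade: recognition molecules such as the mannose-binding lectins bind a surface, proteases cleave C3, the fragment C3b coats the surface, and the terminal components assemble into a pore, the membrane attack complex. The 9 genes described here cover these steps in mouse liver. They are C3, the alternative pathway protease gene Cfb, the regulator gene Cfi, the lectin genes Mbl1 and Mbl2, and the terminal component genes C6, C8a, C8b and C9. They were taken by symbol from the 23284 genes of the count files, and all 9 were found.

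mRNA was measured by RNA-seq in livers of 3 FXR-WT and 3 Y67F-FXR mice, 1 library per liver. All were male FXR-floxed mice. At 8 weeks of age each received an AAV8 vector for Cre recombinase, which deletes the floxed mouse FXR gene, together with a second AAV8 vector for FXR-WT or for Y67F-FXR, in which the Src phosphorylation site Y67 is replaced. Both vectors used the TBG promoter, which is active in hepatocytes, so other liver cells kept their own FXR, and by design both groups had vector-borne FXR in place of their own in hepatocytes. Liver RNA was collected 4 weeks after injection, when the mice had eaten 0.5% cholic acid, a bile acid that activates FXR, for 6 h. FXR is the nuclear receptor for bile acids and C3 is a known target of it, so the comparison asks whether loss of the Y67 site goes with different mRNA levels of C3 and its companions in the cascade.

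Between 19551113 and 22053320 reads per library fell on genes. Nr1h4, the mouse FXR gene, had 152, 209 and 198 CPM (counts scaled to a common library size with TMM factors) in the FXR-WT and 169, 169 and 186 CPM in the Y67F-FXR libraries, but reads of the FXR transgene that align there are counted with it, so its level does not check the deletion. Hepatocyte markers dominated, with a summed level of 7 genes from 113067 to 135579 CPM. Libraries differed by gene length within both groups: the median deviation of the shortest 20% of genes on the log2 scale ran from -0.18 (replicate 3) to 0.20 (replicate 1) in FXR-WT and from -0.20 (replicate 1) to 0.22 (replicate 2) in Y67F-FXR livers. P-values measure only the spread between these livers.

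Between Y67F-FXR and FXR-WT livers, none of the 9 genes passed the test, the quasi-likelihood F test of edgeR. To pass, a gene needed a Benjamini-Hochberg adjusted p under 0.05 over the 12453 genes with enough reads and a fold change over 1.5. Of all tested genes 0.972% passed, 0.426% as lower and 0.546% as higher. All 9 genes were fitted lower in Y67F-FXR, where 48% of all tested genes were, with log2 fold changes from -0.70 to -0.07 and a median of -0.17, against a median of 0.01 over all tested genes. The genes for the alpha and beta chains of C8 had the largest differences, and C3 and Cfb the smallest. At an unadjusted p under 0.05, C8a and C8b were the 2 genes on the lower side, where 6.67% of all tested genes lay, and none was on the higher side, where 6.75% lay. The same pair was fitted lower by over 1.5-fold, as 4.6% of all tested genes were. In 4 of the 9 genes, C8a, C8b, Cfi and Mbl1, every Y67F-FXR liver lay below every FXR-WT liver, as in 10.5% of all tested genes, and none was higher without overlap, as 10.2% were (20.6% in either direction). DESeq2, a second count test, passed 1 of the 9, C8b, as lower, where it passed 1.55% of its 13315 genes with an adjusted p (3.15% in either direction). In bulk liver RNA, fewer hepatocytes and less mRNA per hepatocyte cannot be told apart.

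**Figure D1:**
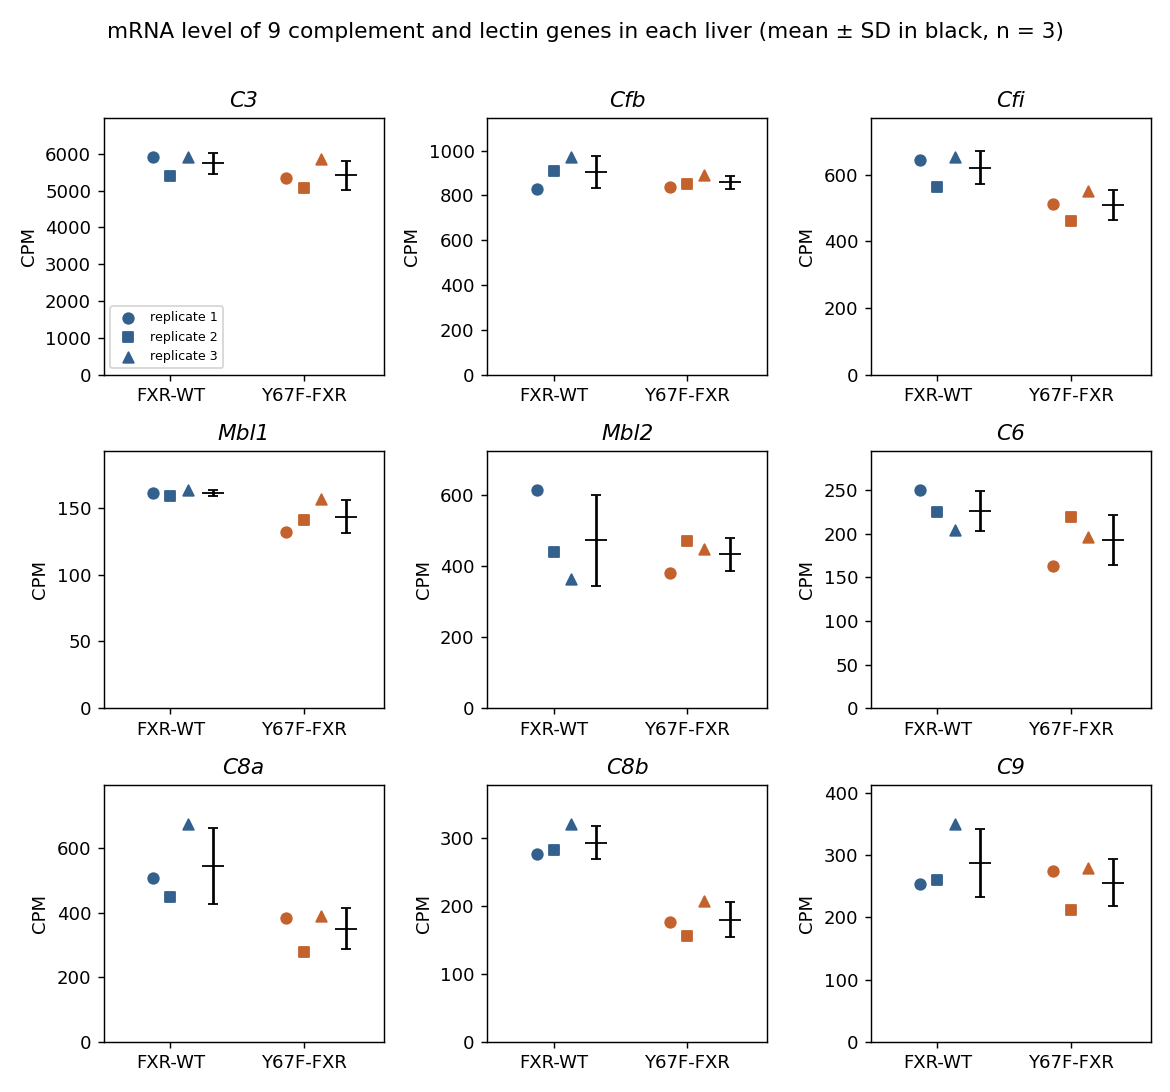
mRNA level in CPM (y axes, each starting at 0) of the 9 genes in each of the 3 FXR-WT and 3 Y67F-FXR livers, where symbols are replicates and black bars the mean ± SD. The groups do not overlap in C8a, C8b, Cfi and Mbl1, and overlap in the other 5.

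The promoter windows of C3 and of the pair C8a and C8b are shown because C3 is the FXR target of the set and the pair differed most between the groups. The windows run from 250 bases before to 50 bases after the RefSeq start, on the strand of the gene, in GRCm38.p6. C3 lies at chr17:57228087-57228386 on the minus strand, C8a at chr4:104876349-104876648 on the minus strand and C8b at chr4:104766067-104766366 on the plus strand. Capitals mark exact matches, on either strand, to AGGTCA (the hexamer of nuclear receptors), GTTAAT (part of the HNF1 site), TTGCNNAA (C/EBP) and TATAAA (the letters of a TATA motif).
C3: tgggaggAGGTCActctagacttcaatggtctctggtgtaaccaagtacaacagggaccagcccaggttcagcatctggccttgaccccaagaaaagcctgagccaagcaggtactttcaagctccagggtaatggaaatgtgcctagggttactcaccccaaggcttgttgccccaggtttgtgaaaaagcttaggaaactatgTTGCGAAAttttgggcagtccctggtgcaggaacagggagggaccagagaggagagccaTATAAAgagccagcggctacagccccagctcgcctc
C8a: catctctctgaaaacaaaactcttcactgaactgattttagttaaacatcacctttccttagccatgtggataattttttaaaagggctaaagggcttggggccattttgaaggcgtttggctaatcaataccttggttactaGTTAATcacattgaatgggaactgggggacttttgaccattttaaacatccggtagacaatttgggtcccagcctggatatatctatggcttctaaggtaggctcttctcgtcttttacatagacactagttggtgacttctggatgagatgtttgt
C8b: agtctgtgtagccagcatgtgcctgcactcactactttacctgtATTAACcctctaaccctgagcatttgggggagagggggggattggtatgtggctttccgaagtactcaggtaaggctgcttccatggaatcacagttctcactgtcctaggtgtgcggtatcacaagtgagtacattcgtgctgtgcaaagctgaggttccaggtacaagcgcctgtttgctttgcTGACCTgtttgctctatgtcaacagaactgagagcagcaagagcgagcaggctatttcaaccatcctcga

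RefSeq windows were matched for 7 of the 9 genes, C3, C6, C8a, C8b, C9, Mbl1 and Mbl2. The core of the inverted repeat that FXR binds with its partner RXR, searched as GGTCA and its reverse complement with 1 base between, was in 0 of these 7 windows and in 0.0396% of 32851 windows of the same length. The hexamer AGGTCA was in 4 of them, those of C3, C6, C8b and Mbl2, and in 16.3% of all windows. GTTAAT was in the windows of C8a and C8b, 107 and 206 bases before the start, and in 7.1% of all windows. TTGCNNAA was in those of C3 and C9 and in 10.8% of all. TATAAA was in the window of C3, 14 bases after the RefSeq start, and in 13.6% of all. A TATA box lies before the start, and where transcription of C3 begins in these livers was not tested. The consensus NF-kB site was in none of the 7 and in 0.155% of all. A match is a description of the letters and says nothing about binding.

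Per kilobase of gene model, C3 was the most abundant of the 9 genes. C3 encodes the protein on which all activation routes converge. Its level was 1087 ± 69.9 RPKM (SD, n = 6), and the lowest liver, at 988 RPKM, was above the highest liver of any other of the 9. Mbl2 had 424 ± 83.0 RPKM (SD, n = 6), Cfb 321 ± 19.7 RPKM (SD, n = 6) and Cfi 273 ± 36.3 RPKM (SD, n = 6), each overlapping the next. A gap followed, since every liver had more Cfi than Mbl1. Mbl1 had 165 ± 13.6 RPKM (SD, n = 6), C9 154 ± 25.7 RPKM (SD, n = 6), C8a 123 ± 37.2 RPKM (SD, n = 6), C8b 106 ± 29.5 RPKM (SD, n = 6) and C6 73.8 ± 10.4 RPKM (SD, n = 6), and the ranges of neighbours overlapped throughout this lower group. The 9 genes together took from 0.737% to 1.01% of the reads of a library, and C3 alone from 61.4% to 65.2% of that share.

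**Figure D2:**
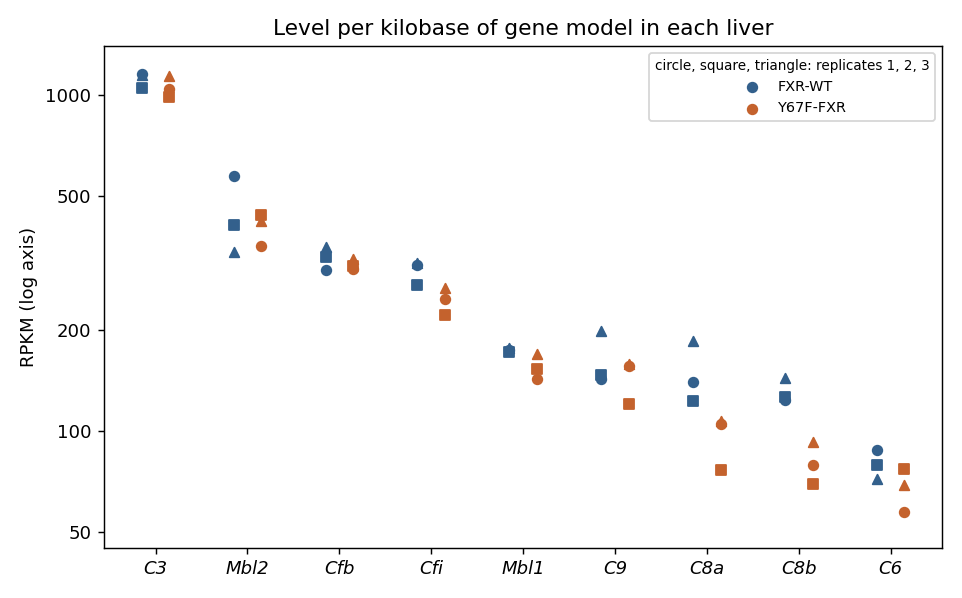
Level per kilobase of gene model (RPKM, log axis) of the 9 genes in each liver, ordered by the mean over 6 livers. C3 stands above the rest at 988 to 1153 RPKM, and from Mbl1 to C6 neighbouring genes overlap.

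C3 is on chromosome 17 of mm9, 57343396 to 57367559. It had 5919.8, 5398 and 5906 CPM in the FXR-WT and 5339.9, 5074 and 5853 CPM in the Y67F-FXR livers. Y67F-FXR replicate 3 lay above FXR-WT replicate 2, so the groups overlapped. The means were 5741 ± 298 CPM (SD, n = 3) and 5422 ± 396 CPM (SD, n = 3). Y67F-FXR over FXR-WT, the fitted log2 fold change was -0.08 (standard error 0.126, Benjamini-Hochberg adjusted p = 0.859 by the edgeR test), with a 95% interval from -0.37 to 0.21. This interval lies within 0.58 on the log2 scale of no difference, the size of a 1.5-fold change, as it does for 6 of the 9 genes.

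Cfb encodes factor B, the protease of the alternative pathway that joins C3b to form its C3 convertase. It is on chromosome 17 of mm9, 34993319 to 34999459, with 831, 908 and 972 CPM in the FXR-WT and 836, 849 and 890.4 CPM in the Y67F-FXR livers. The lowest value of all was that of FXR-WT replicate 1, and the groups overlapped. On the log2 scale the fitted difference was -0.07 (standard error 0.118), with a 95% interval from -0.35 to 0.20.

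Cfi encodes factor I, the plasma protease that inactivates C3b and C4b. It is on chromosome 3 of mm9, 129539657 to 129578246, with 646, 564 and 654 CPM in the FXR-WT and 514, 461 and 551 CPM in the Y67F-FXR livers. The highest Y67F-FXR value lay just under the lowest FXR-WT value. The means were 622 ± 49.9 CPM (SD, n = 3) and 509 ± 45.3 CPM (SD, n = 3), a ratio of 0.818. The fitted log2 fold change was -0.29 (standard error 0.128, Benjamini-Hochberg adjusted p = 0.382 by the edgeR test), with a 95% interval from -0.58 to 0.005.

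Mbl1 and Mbl2 encode the mannose-binding lectins A and C, collagenous proteins that bind sugars on microbes and start the lectin pathway through their partner proteases. Mbl1, on chromosome 14 of mm9 (41964745 to 41972248), had 161, 159 and 163 CPM in the FXR-WT and 132, 141 and 157 CPM in the Y67F-FXR livers. The coefficient of variation of the FXR-WT livers was 1.39%, and Y67F-FXR replicate 3 came close to them without overlap. Y67F-FXR over FXR-WT, the fitted log2 fold change was -0.17 (standard error 0.114), with a 95% interval from -0.43 to 0.096. Mbl2, on chromosome 19 of mm9 (30307447 to 30314172), had 614, 440.3 and 366 CPM in the FXR-WT and 380.1, 470.1 and 450.2 CPM in the Y67F-FXR livers. FXR-WT livers held both the highest and the lowest of these values. The log2 fold change of Mbl2 was -0.13 (standard error 0.200, 95% interval from -0.59 to 0.33), and 0.10 without FXR-WT replicate 1, so its sign rested on that liver.

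C6, C8a, C8b and C9 encode proteins of the membrane attack complex that share a pore-forming domain. C6 is the first of them to join after C5b, the C8 alpha and beta chains insert into the membrane, and many copies of C9 complete the ring. C8b and C8a are neighbours on chromosome 4 of mm9, at 104438922 to 104477153 on the plus strand and at 104488285 to 104549003 on the minus strand. Their ends face each other with 11131 bases between them, and neither shares exon bases with another gene.

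C8b had 277, 283 and 321 CPM in the FXR-WT and 177, 156 and 208 CPM in the Y67F-FXR livers. Every Y67F-FXR liver was well below every FXR-WT liver. The means were 294 ± 24.1 CPM (SD, n = 3) and 180.2 ± 26.2 CPM (SD, n = 3), a ratio of 0.614. On the log2 scale the fitted difference was -0.70 (standard error 0.143, Benjamini-Hochberg adjusted p = 0.0765 by the edgeR test), with a 95% interval from -1.03 to -0.37. Leaving out each liver in turn gave values from -0.81 to -0.62, and the edgeR adjusted p then lay between 0.109 and 0.248. C8b passed with DESeq2 (adjusted p = 0.00123 with Benjamini-Hochberg adjustment) and with edgeR when a trend in gene length was taken out (adjusted p = 0.0379, log2 fold change -0.69), a setting that called 0.972% of all tested genes as lower.

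C8a had 508, 447 and 675 CPM in the FXR-WT and 383, 279 and 391 CPM in the Y67F-FXR livers. The groups did not overlap, but FXR-WT replicate 3 stood above and Y67F-FXR replicate 2 below the rest of their groups. The means were 543 ± 118 CPM (SD, n = 3) and 351 ± 62.3 CPM (SD, n = 3), a ratio of 0.646. The fitted log2 fold change was -0.63 (standard error 0.198, Benjamini-Hochberg adjusted p = 0.210 by the edgeR test), with a 95% interval from -1.09 to -0.18. Without FXR-WT replicate 3 it was -0.44, and without Y67F-FXR replicate 2 it was -0.50. Those livers deviate in opposite directions in the trend with gene length. With that trend taken out the log2 fold change of C8a was -0.64. The trend ran in both directions within each group, so taking it out could hardly move the group difference. Its part in the values of those livers was not tested.

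C8 in plasma also holds a gamma chain, encoded by C8g on chromosome 2 of mm9 (25354176 to 25356026). C8g was not among the 9 genes, and was set beside C8a and C8b after its values were seen. It had 345, 309 and 255 CPM in the FXR-WT and 272, 474 and 353 CPM in the Y67F-FXR livers, with overlapping groups and a log2 fold change of 0.27 (standard error 0.214). That value was 0.03 without Y67F-FXR replicate 2. Per kilobase, the ratio of C8b to C8g was 0.372, 0.425 and 0.584 in the FXR-WT and 0.302, 0.152 and 0.273 in the Y67F-FXR livers. The lowest ratio was that of Y67F-FXR replicate 2, and the other Y67F-FXR livers were also below the lowest FXR-WT liver. The gene model of C8g has 1038 bases, against 2239 for C8b, so the trend in gene length enters this ratio. In the livers with the highest and the lowest ratio, the median deviation of the shortest genes was -0.18 and 0.22. Within each group the ratio fell as that deviation rose. With the trend taken out, the log2 fold changes of C8b and C8g were -0.69 and 0.25. The part of the trend in the spread of the ratio between livers was not tested. The ratio of C8b to C8g is a description with no test, since the genes were paired after their values were seen. The ratio of C8a to C8b was 1.13, 0.973 and 1.29 in the FXR-WT and 1.33, 1.10 and 1.16 in the Y67F-FXR livers, with overlapping groups.

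**Figure D3:**
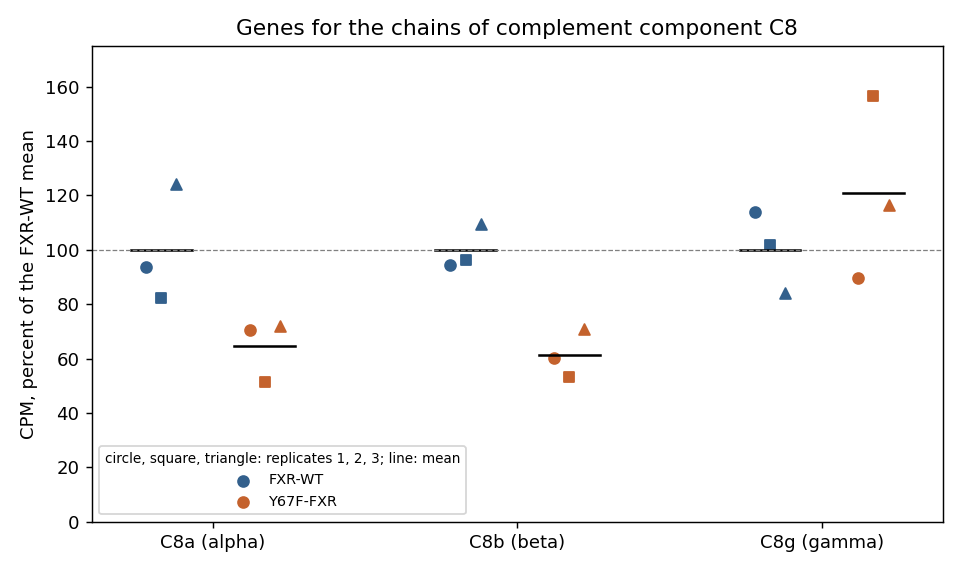
CPM of the genes for the C8 chains in each liver as a percent of the FXR-WT mean of the same gene (y axis from 0), with short black lines at the group means. Y67F-FXR livers lay at 51.3% to 71.9% for C8a and 53.0% to 70.8% for C8b, and at 89.8% to 157% for C8g.

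C6, on chromosome 15 of mm9 (4677210 to 4754045), had 249.9, 226 and 204 CPM in the FXR-WT and 163, 219.6 and 196 CPM in the Y67F-FXR livers. Y67F-FXR replicate 2 lay above the lowest FXR-WT liver, and the log2 fold change was -0.23 (standard error 0.148, 95% interval from -0.57 to 0.11). C9, on the same chromosome (6395333 to 6448476), had 253, 259.8 and 350.3 CPM in the FXR-WT and 275, 212 and 280.1 CPM in the Y67F-FXR livers. FXR-WT replicate 3 was the only liver above 300 CPM for C9. The log2 fold change of C9 was -0.17 (standard error 0.175, 95% interval from -0.57 to 0.23), and -0.003 without that liver.

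The 9 genes did not vary as 1 block from liver to liver. Among the 36 pairs, Pearson's r of log2 CPM over the same 6 livers was highest for Cfi with C8a (0.95), Cfi with C8b (0.93) and C8a with C8b (0.92), and lowest for Mbl2 with C9 (-0.58) and with Cfb (-0.58). The difference between the groups and the trend in gene length enter these values, which are given as a description. FXR-WT replicate 3 was the highest liver for 6 of the 9 genes and Y67F-FXR replicate 2 the lowest for 5. The genes most like the mean standardised profile of the 9 were Hist2h3c1 (r = 0.990), Zfp940 (0.987), Fam189b (0.986), Afap1l2 (0.985) and Apba3 (0.984), the highest of all other tested genes over 6 livers. Of these, Apba3 had 39.6 to 42.9 CPM in FXR-WT and 29.7 to 36.9 CPM in Y67F-FXR livers, and the other 4 stayed under 6 CPM in every liver.

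The rest of the pathway was taken from a list of 45 genes ordered by role, of which 38 had enough reads to be tested. None passed in either direction, by the same edgeR test; at an unadjusted p under 0.05, 1 was lower and 1 higher, against 6.67% and 6.75% of all tested genes. DESeq2 passed 1, C4a, as lower, against 1.55% of all genes. Y67F-FXR values were fitted lower for 20 of the 38 and higher for 18, and their median log2 fold change was -0.02. Of 13 tested genes for recognition and the early classical and lectin proteases, 5 were fitted lower, with a median of 0.05. Of 5 for the alternative and terminal steps, 2 were fitted lower, with a median of 0.26. Of 13 for regulators, 9 were fitted lower, with a median of -0.07, and of 7 receptor genes, 4 were, with a median of -0.05. C7, whose protein joins the membrane attack complex between C6 and C8, was nearly absent in these livers, at 0.525 to 0.927 CPM.

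C4a had the largest difference of this list. It encodes the sex-limited protein, a relative of the classical pathway component C4. It had 109, 54.2 and 92.8 CPM in the FXR-WT and 35.4, 37.9 and 40.0 CPM in the Y67F-FXR livers. The groups did not overlap, and the FXR-WT livers were the more spread. Y67F-FXR over FXR-WT, the fitted log2 fold change was -1.18 (standard error 0.240, Benjamini-Hochberg adjusted p = 0.0782 by the edgeR test), with a 95% interval from -1.73 to -0.62. That adjusted p was 0.0331 without FXR-WT replicate 2, where C4a passed, and 0.279 without Y67F-FXR replicate 3. C4a is a near copy of its neighbour C4b, and reads that fit both were not counted, so its level is uncertain. C4b itself, the gene for C4, had 909, 813 and 863 CPM in the FXR-WT and 755, 967 and 955 CPM in the Y67F-FXR livers, with overlapping groups and a log2 fold change of 0.05.

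By smallest unadjusted p, Fcna, C4bp, Hc, Cd55 and Itgam came next. Fcna encodes ficolin A, another recognition molecule of the lectin pathway, and had 27.9, 31.5 and 32.7 CPM in the FXR-WT and 31.9, 44.6 and 44.8 CPM in the Y67F-FXR livers, a log2 fold change of 0.40 with overlapping groups. Hc, the gene for C5, had 569, 445 and 601 CPM in the FXR-WT and 457, 399.6 and 446 CPM in the Y67F-FXR livers, a log2 fold change of -0.31. C4bp, for the C4b-binding inhibitor, had 386, 407 and 458 CPM in the FXR-WT and 342, 332 and 371 CPM in the Y67F-FXR livers, without overlap and with a log2 fold change of -0.26. The edgeR adjusted p was 0.338 for Fcna, 0.415 for C4bp and 0.420 for Hc. The log2 fold changes of Cd55, a membrane inhibitor of the convertases, and of Itgam, a subunit of complement receptor 3, were -0.29 and -0.71.

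**Figure D4:**
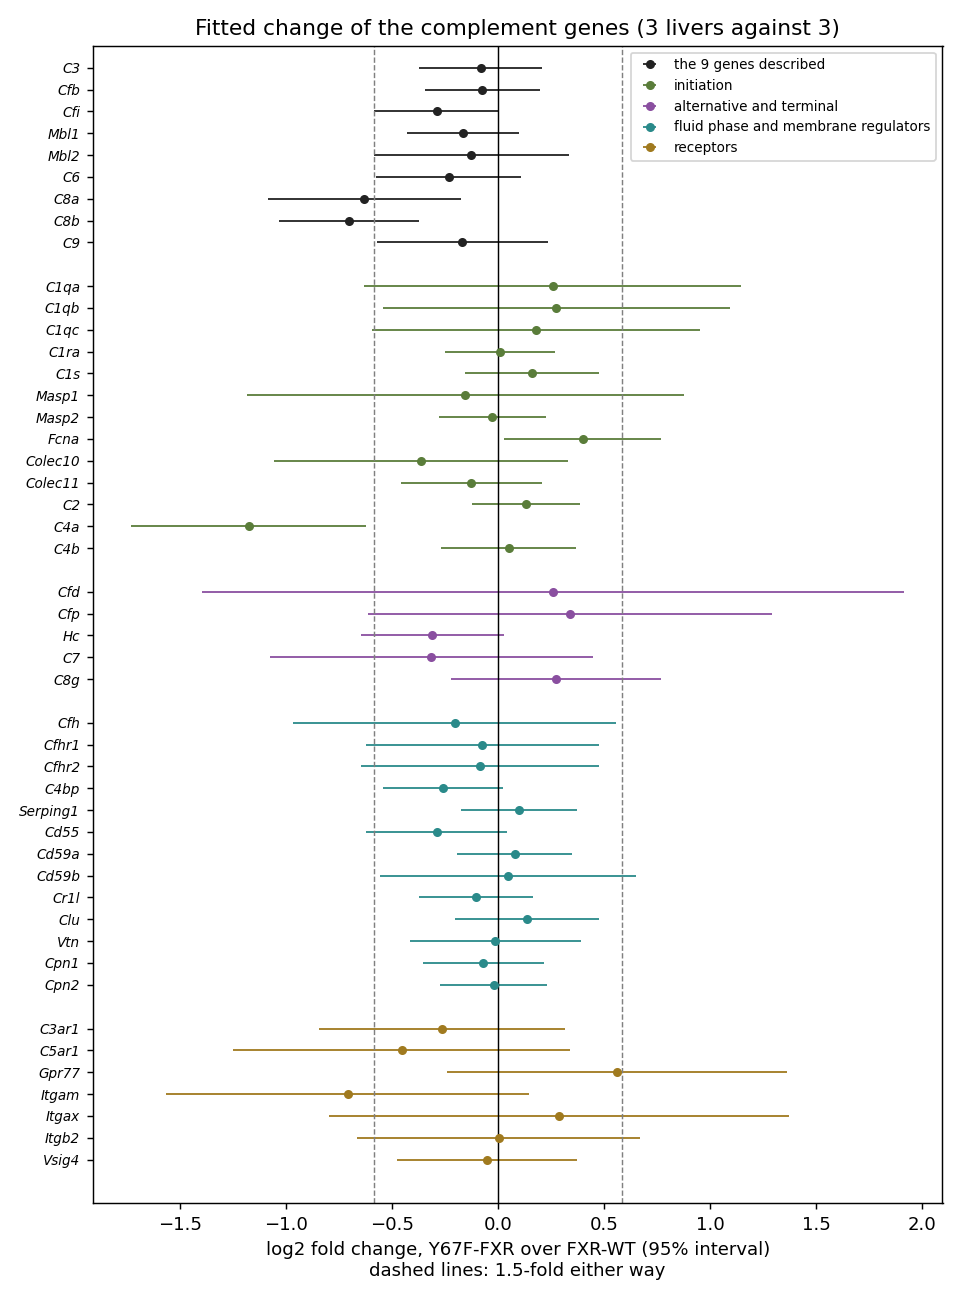
Fitted log2 fold change of Y67F-FXR over FXR-WT (x axis) with its 95% interval for the 9 genes and the 38 other tested complement genes, coloured by role. The intervals of C8a, C8b and C4a lie below 0 and that of Fcna above 0, before adjustment, and the other intervals hold 0.

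Of 7 hepatocyte marker genes none passed, their median log2 fold change was 0.01, and that of Alb, the gene for albumin, was 0.01, while Ahsg was lower without overlap (log2 fold change -0.24). Summed Kupffer cell markers ranged from 144 to 209 CPM in FXR-WT and from 117 to 322 CPM in Y67F-FXR livers over 7 genes. Summed neutrophil markers ranged from 2.46 to 4.69 CPM in FXR-WT and from 0.382 to 1.20 CPM in Y67F-FXR livers over 4 genes, with Mpo at 0 in all. The 2 tested genes, S100a8 and S100a9, were lower without overlap (log2 fold changes -2.73 and -1.95), but at low levels. S100a8 lay at 0.864 to 1.27 CPM in FXR-WT and 0.0477 to 0.243 CPM in Y67F-FXR livers. Summed stellate cell markers ranged from 199 to 206 CPM in FXR-WT and from 145 to 203 CPM in Y67F-FXR livers over 6 genes. Most of that sum was Dcn, while Lrat, at 13.1 to 18.7 CPM in FXR-WT and 5.78 to 8.51 CPM in Y67F-FXR livers (log2 fold change -1.15, Benjamini-Hochberg adjusted p = 0.0540 by the edgeR test), and Col1a1 (-0.77) were lower without overlap. Endothelial markers ranged from 144 to 172 CPM in FXR-WT and from 146 to 157 CPM in Y67F-FXR livers over 5 genes, and among them Lyve1 was lower without overlap, at 9.07 to 20.8 CPM in FXR-WT and 7.36 to 8.46 CPM in Y67F-FXR livers (log2 fold change -0.89). Cholangiocyte markers ranged from 9.29 to 13.9 CPM in FXR-WT and up to 12.2 CPM in Y67F-FXR livers over 4 genes. None of the tested markers passed by edgeR. DESeq2 passed S100a8, S100a9 and Lrat as lower, against 1.55% of all its genes. Of all genes tested by edgeR, 10.5% were lower without overlap. The part of other cells in the values of the 9 genes was not tested.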

How the data were processed

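The authors deposited counts of reads per gene, 1 file per liver, not normalized. Per the file headers, featureCounts 1.4.6-p4 counted the reads on UCSC mm9 gene models without strand and with the reads of a pair taken singly, and left out reads on several genes or places. STAR made the alignments, as version 2.5.3a in the submitters' processing notes and another version in the study's methods. A table of the authors' own comparison (log2 fold change, mean log2 CPM, p-value and false discovery rate per gene) was not used.

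The analysis used edgeR 4.0.16 and DESeq2 1.42.0 under R 4.3.3. Figures were drawn in matplotlib 3.10.9 (Python 3.11.15). Of 23284 genes, 12453 passed filterByExpr. TMM factors scaled the libraries, and the quasi-likelihood F test (glmQLFit, glmQLFTest) had group as its only term. Standard errors come from the F statistic and intervals from its degrees of freedom. RPKM is CPM per kilobase of gene model, and a prior count of 2 was added for log2 CPM. The lowest count of any of the 9 genes was 2590 reads, a counting error of 1.96%, and reads without molecular identifiers are not independent molecules. Replicate libraries differed beyond counting noise (the chi-square of a pair had a median between 2.23 and 8.19), and each was kept as its own replicate.

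The 9 genes, lists and tests were chosen with earlier results of these data known. Named were the 9 genes, the listed complement genes that passed or else the 6 with the smallest p, the 4 most abundant acute phase genes, and the 5 genes most like the profile of the 9. Of the list, Cfhr3 and the neutrophil marker Ly6g were not found in the count files by symbol, and C1sb, Cd55b and C5ar2 were matched through older symbols. The scripts were tested on simulated data. Alternatives were other scaling, DESeq2, no filter, no fold minimum, unadjusted p, each liver left out, the replicate number as a block, and loess offsets (span 0.3) for gene length.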

Additional observations from a re-analysis of the deposited data

How the results depend on the processing

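None of the 9 genes was called with DESeq2 size factors, library totals, no filter, no fold minimum, each liver left out in turn or the replicate number as a block, alone or with gene length offsets. The exceptions were DESeq2 (1 gene, C8b), gene length offsets (1, C8b) and unadjusted p (2, C8a and C8b). All 9 were fitted lower under every alternative except without FXR-WT replicate 1, where Mbl2 was at 0.10 (its values with each liver left out ran from -0.28 to 0.10). Of the other listed complement genes, 1 (C4a) was called with DESeq2, with no filter and with unadjusted p, and from 0 to 1 with each liver left out. Over all genes, the 121 calls became 419 with DESeq2, 783 with unadjusted p, 242 with gene length offsets, 8 with the replicate block, and from 9 (without FXR-WT replicate 3) to 66 (without FXR-WT replicate 1) with each liver left out. With library totals, 68 calls were lower and 52 higher, against 53 and 68. The cause was not tested. Same-numbered livers did not deviate together, with correlations of -0.52, -0.08 and 0.12, and not every liver correlated best with its own number. These values show no pairing by number. The trend in gene length enters them, so they cannot exclude a pairing hidden under it. Without gene length offsets the block changed no call among the 9 genes, and with them C8b was no longer called (adjusted p = 0.0740 by edgeR's test, against 0.0379 without the block). With 3 livers against 3, a gene that did not pass may still differ by any amount within its 95% interval.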

Other observations

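C1qa, C1qb and C1qc, which encode the chains of C1q, the recognition molecule of the classical pathway, are made mainly by macrophages and not by hepatocytes. C1qa had 69.5, 51.4 and 36.5 CPM in the FXR-WT and 34.3, 100.5 and 53.5 CPM in the Y67F-FXR livers. Y67F-FXR replicate 2 was the highest liver for all 3 genes and Y67F-FXR replicate 1 the lowest. The same liver was the highest for Cfp, the gene for properdin, at 41.4 CPM against 12.3 to 24.0 CPM in the others, and for Marco, a macrophage receptor, at 62.2 CPM against 5.40 to 16.5 CPM. Summed Kupffer cell markers were 322 CPM in that liver and from 117 to 209 CPM in the others. The log2 fold changes of the C1q genes between the groups were 0.26, 0.27 and 0.18, with overlapping groups, and none passed the test. Y67F-FXR replicates 2 and 1 were also the highest and the lowest liver in the deviation of the shortest genes (0.22 and -0.20). C1qa has a gene model of 1082 bases, and the part of that trend in these values was not tested.

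Of 16 acute phase genes, which the liver induces in inflammation together with several complement genes, 15 were fitted lower in Y67F-FXR livers, as 48% of all tested genes were, and none passed edgeR's test. At an unadjusted p under 0.05, 7 were lower and 0 higher, against 6.67% and 6.75% of all tested genes. DESeq2 passed 2, Steap4 and Apcs, as lower, against 1.55% of all its genes. The median log2 fold change was -0.37, against 0.01 over all tested genes. Hp, the gene for haptoglobin, had 5789, 4405 and 4271 CPM in the FXR-WT and 3060.3, 4994 and 4049 CPM in the Y67F-FXR livers, with overlapping groups. Hpx, for hemopexin, had 5779.8, 3235 and 3229 CPM in the FXR-WT and 2525, 4588 and 3482 CPM in the Y67F-FXR livers, also with overlap. The fibrinogen genes Fgb and Fga did not overlap between the groups. Fgb had 3737, 2876 and 3838 CPM in the FXR-WT and 2481, 2124 and 2608 CPM in the Y67F-FXR livers (log2 fold change -0.53, Benjamini-Hochberg adjusted p = 0.184 by the edgeR test). Fga had 3193, 3077 and 3658 CPM in the FXR-WT and 2643, 2077 and 2848 CPM in the Y67F-FXR livers, a log2 fold change of -0.39.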
